A study of Mus musculus with 26 samples.

Results

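TN4 thymocytes were set against TN3a thymocytes of the mouse, the cells that have passed beta-selection against the cells that wait for it. All samples labelled TN4 or TN3a were taken, 3 arrays of each, which made 6 of the 16 thymocyte arrays and 6 of the 26 arrays in the series. Per the labels, TN4 cells came from C57BL/6 mice with the surface phenotype CD4- CD8- CD3- CD44- CD25- CD28+, and TN3a cells from the same strain with CD4- CD8- CD3- CD44- CD25+ CD28-. The labels say that samples were sorted or taken straight from suspension, without saying which. Neither stage carried a transgene, deletion or treatment in the labels. The stage between them, TN3b (2 arrays, CD25+ CD28+), the later immature single positive cells (2 arrays, called ISP here) and the other stages were used to place the pair. The study placed mouse T cell leukaemias beside normal thymocyte stages on Illumina bead arrays, on which a biotin-labelled copy of the RNA binds 1 kind of bead for each probe. Whether the 3 arrays of a stage were made from different mice is not stated in the labels, and a p-value here weighs a difference against the spread among arrays, part of which may be technical.

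At beta-selection a thymocyte that has rearranged its T cell receptor beta gene puts the beta chain on its surface with the invariant pre-TCR alpha chain (Ptcra) and CD3. Signals of this pre-TCR, together with Notch signals from the thymic stroma, let the cell survive, stop rearranging the beta gene, divide and lose CD25. Cells without a beta chain stay at TN3a and mostly die. In bulk samples such as these, fewer cells of a type and less RNA per cell cannot be told apart.

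On TN4 arrays 37.4% to 40.66% of probes were detected (detection p under 0.01), and on TN3a arrays 38.78% to 41.76%. TN2 replicate 2 was a dim array with 21.37% detected and stayed in the fit of all stages; without that array 1961 probes differed between TN4 and TN3a cells. Levels below are log2 intensity after background correction and quantile normalisation, given in the order of replicates 1, 2 and 3. TN4 and TN3a replicates with the same number shared a slide (slides 4, 6 and 7), and deviations from the stage mean on a shared slide correlated across probes at 0.604, 0.451 and 0.604. TN4 replicates 2 and 3 correlated at 0.984 across probes, while TN4 replicate 1 correlated with them at 0.959 and 0.962. Among TN3a arrays, replicates 2 and 3 correlated at 0.979, and replicate 1 with them at 0.959 and 0.955.

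TN4 replicate 1 was the TN4 array closest to ISP, and the comparison was therefore made with and without it. It shared slide 4 with an ISP array and no TN3b array. TN4 replicate 2 shared slide 6 with a TN3b array and no ISP array. Nearness of these arrays to a stage thus cannot be told apart from a shared slide. On a line from the TN3a mean at 0% to the ISP mean at 100%, taken over the probes that differed between those stages, the 3 TN4 arrays lay at 80.6%, 71.5% and 77.5%. The TN3a arrays lay at -1.8%, -0.5% and 2.3%. The TN3b arrays lay at 69.3% and 70.2%, just below the lowest TN4 array. TN4 replicate 1 correlated with the ISP mean at 0.98 and with the TN3b mean at 0.968, while TN4 replicates 2 and 3 correlated with the ISP mean at 0.967 and 0.976 and with the TN3b mean at 0.978 and 0.982. Arrays of double positive (DP) cells lay off this line, at 67.7% and 64.1%, and their place there does not mean likeness to TN3b.

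**Figure D1:**
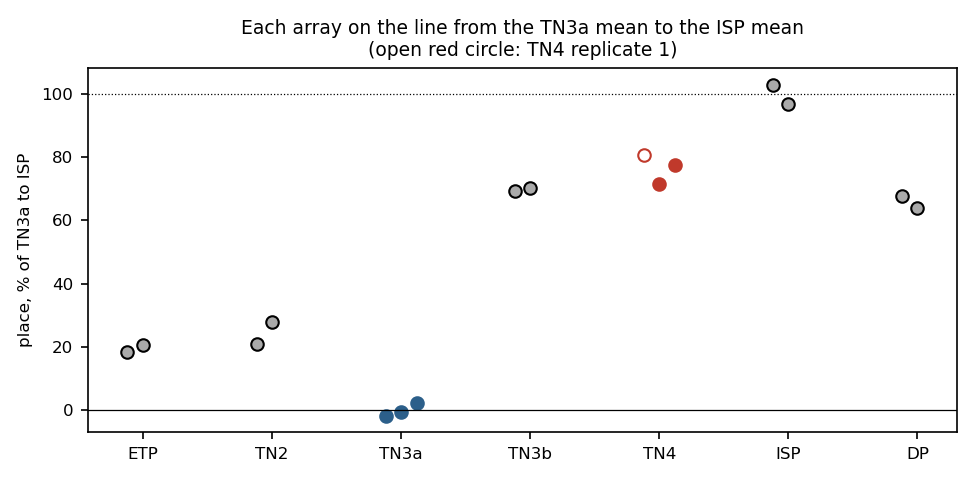
Place of each of the 16 thymocyte arrays (points, by stage along the x axis) on the line from the TN3a mean (0%) to the ISP mean (100%), y axis in percent. The 3 TN4 arrays lie between 71.5% and 80.6%, with TN4 replicate 1 (open circle) highest, and the 3 TN3a arrays lie within 2.3% of 0%.

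Of 24735 probes tested, 1330 differed between TN4 and TN3a cells at an adjusted p under 0.05 (limma, Benjamini-Hochberg), which is 5.38% of them. In TN4 cells 606 of these probes were higher and 724 lower, and 1103 probes (4.46%) differed by at least 2-fold. With 1 probe a gene, 919 of 13485 genes passed, or 6.81%. Of these, 404 genes were higher (3% of those tested) and 515 lower in TN4 cells (3.82%), with median folds of 2.77 and 2.79. TN4 and TN3a arrays did not overlap for 403 of the 404 higher genes and for all 515 lower genes. Over all genes tested 26.1% did not overlap. The called genes were chosen by p-value on these same arrays, so their lack of overlap follows largely from that choice. For 41 higher genes no TN3a array gave a detected signal, and for 61 lower genes no TN4 array did.

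Without TN4 replicate 1 the count was 1115 probes, 555 higher and 560 lower, and 949 of them were among the 1330. With the dim TN2 array left out as well it was 1675 probes, 831 higher and 844 lower, and 1168 of them were among the 1330. Without TN4 replicate 3 it was 791, and without TN3a replicate 2 it was 851, both more than 1.5 times fewer. With slide as a block it was 2098 probes, 996 higher and 1102 lower, 1324 of them among the 1330. Median scaling in place of quantile normalisation left 175 probes, 68 higher and 107 lower, and 923 once the dim TN2 array was also left out.

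Of the genes behind the gates, Il2ra and Cd28 differed in the direction of the labels, while 2 of 3 Cd8b1 probes were higher in TN4 cells, which are labelled CD8-. Il2ra, which encodes CD25, had levels of 4.94, 4.84 and 4.7 on TN4 arrays, against 10.17, 10.56 and 10.54 on TN3a arrays. The stages lay far apart, and Il2ra was 48.3-fold lower in TN4 cells (log2 difference -5.6, SE 0.24, limma adjusted p = 6.73e-08). Cd28, the costimulatory receptor that rises at beta-selection, had levels of 8.37, 8.66 and 8.88 on TN4 arrays, against 6.92, 6.53 and 6.49 on TN3a arrays. It rose 3.97-fold (limma adjusted p = 0.000933), although its probe was detected on all 3 TN3a arrays, which are labelled CD28-. Kit, the receptor for stem cell factor, fell 3.41-fold, with 6.96, 7.93 and 7.65 on TN4 arrays against 9.26, 9.16 and 9.42 on TN3a arrays (limma adjusted p = 0.0111, and 0.0488 without TN4 replicate 1).

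Cd44 was low in both stages, at 5.36, 5.43 and 5.04 on TN4 arrays against 5.04, 5.05 and 4.84 on TN3a arrays, while early thymic progenitors (ETP) averaged 10.48. Cd4 was detected on 2 of 3 TN4 arrays and on 0 TN3a arrays, with a log2 difference of 0.34 (limma adjusted p = 0.714), and the Cd8a probe was detected on no array of either stage. Even on the DP arrays the Cd8a probe reached only 5.06 and 5.07, so its absence here says little. The gene for the other CD8 chain, Cd8b1, has 3 probes that disagreed. The brightest differed by -0.14 (limma adjusted p = 0.937). That probe was brighter in ETP, at 12.11 and 12.25, than in DP cells, at 9.68 and 10.12, so it says little about Cd8b1. The other probes were higher in TN4 cells by 6.02 and 4.79 on the log2 scale (limma adjusted p = 6.19e-07 and 3.62e-06). Cd3e, a chain of the CD3 complex that is held inside the cell at these stages, was bright in both, with 12.47, 12.32 and 12.05 on TN4 arrays against 13.48, 13.02 and 13.04 on TN3a arrays. The 2 groups did not overlap for Cd3e, with a limma adjusted p of 0.117, and of 0.0331 with slide as a block. Cd24a varied among arrays of 1 stage more than between stages, at 6.6, 6.33 and 4.77 in TN4 cells against 6.56, 7.13 and 5.09 in TN3a cells. In both stages the array on slide 7 was lowest. The probe was also dim in ETP, at 5.39 and 6.03, and in DP cells, at 5.33 and 4.83, so it says little about Cd24a.

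**Figure D2:**
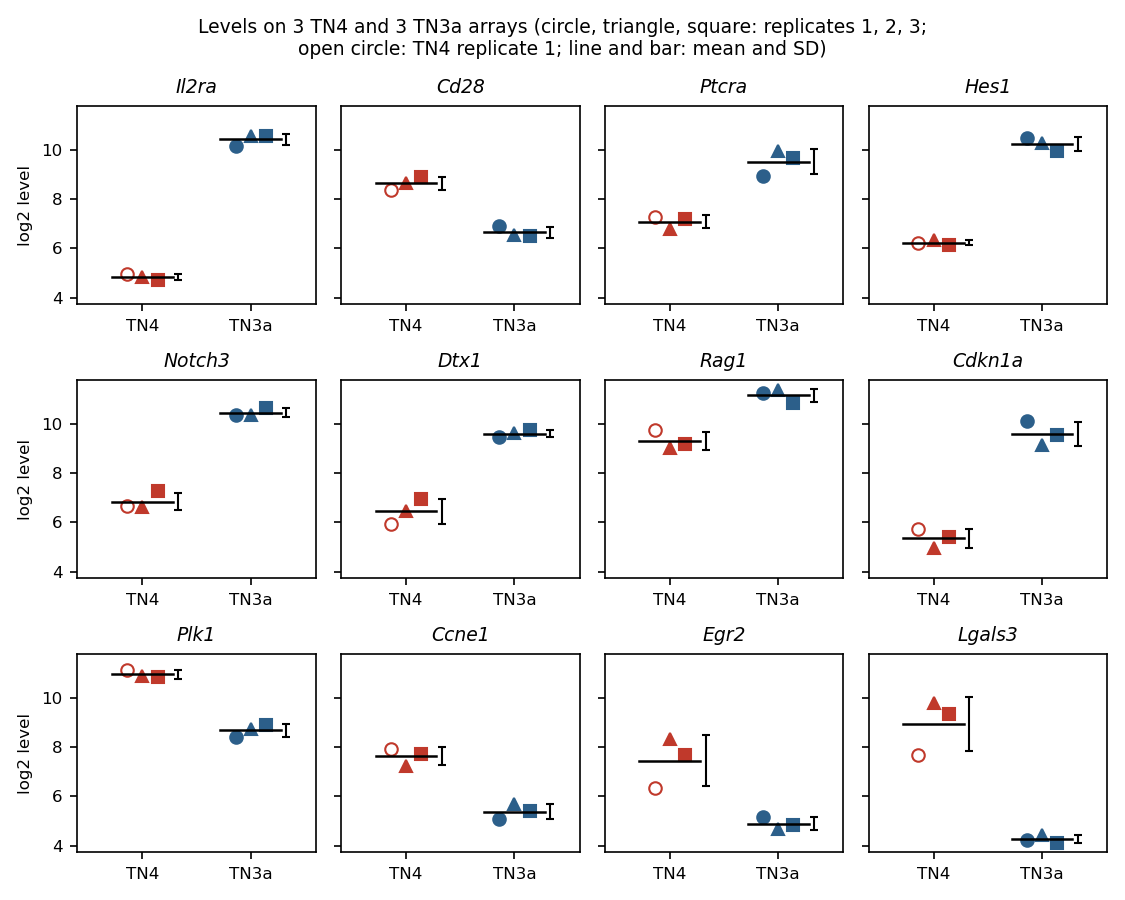
Log2 levels (y axis) of 12 genes on the 3 TN4 arrays (red, left) and the 3 TN3a arrays (blue, right), with replicates 1, 2 and 3 as circle, triangle and square and TN4 replicate 1 as an open circle. Black lines and bars are means and SD, and the stages do not overlap in any panel. Il2ra lies at 4.7 to 4.94 in TN4 cells, and TN4 replicate 1 is the lowest TN4 array for Egr2 (6.33) and Lgals3 (7.69).

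Notch receptors and targets were among the genes that fell in TN4 cells. The pathway and its targets had 16 genes with a probe that passed the detection filter. Of these 6 fell and 0 rose, with a median log2 difference of -0.5, beside 0.01 for all genes. Over all genes 3.82% fell and 3% rose, shares that also apply to the lists below. Hes1, a repressor that Notch induces, had levels of 6.23, 6.33 and 6.12 on TN4 arrays, against 10.47, 10.29 and 9.94 on TN3a arrays. These groups were narrow and well apart, a 16.1-fold fall (limma adjusted p = 1.38e-06). The receptor gene Notch3 had 6.66, 6.62 and 7.25 on TN4 arrays against 10.35, 10.34 and 10.65 on TN3a arrays, a 12.2-fold fall (limma adjusted p = 4.59e-05). Dtx1, which encodes the Notch-linked ubiquitin ligase Deltex, had 5.93, 6.46 and 6.95 on TN4 arrays against 9.45, 9.61 and 9.74 on TN3a arrays, 8.92-fold lower (limma adjusted p = 7.09e-05). Notch1 itself fell 3.63-fold, with 10.29, 9.87 and 9.54 on TN4 arrays against 12.26, 11.79 and 11.23 on TN3a arrays (limma adjusted p = 0.00183). Within slides 4, 6 and 7 the Notch1 difference was -1.97, -1.93 and -1.69.

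Il2ra, whose protein was also used in the sort, and Ptcra, both targets of Notch in thymocytes, were the other members that fell. The 6 falls also passed without TN4 replicate 1 and with slide as a block, and under median scaling 5 of the list passed. Without TN4 replicate 1, 1 gene of the list rose, Hey1, another Notch target, with levels of 4.34, 6.53 and 5.74 on TN4 arrays against 4.23, 4.17 and 4.61 on TN3a arrays (limma adjusted p = 0.00356, against 0.144 with all 3 TN4 arrays). Hes5 (log2 difference -0.73, limma adjusted p = 0.346) did not pass, and Rbpj, which encodes the DNA-binding partner of Notch, was detected on 0 TN4 arrays and 1 TN3a array.

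Among genes of the pre-TCR and its nearest signalling, 4 of 21 rose and 2 fell (median -0.19), beside 3% and 3.82% of all genes. Ptcra had levels of 7.26, 6.77 and 7.19 on TN4 arrays, against 8.94, 9.95 and 9.65 on TN3a arrays. It fell 5.42-fold (limma adjusted p = 0.000414), and its TN3b mean of 7.48 was already near the TN4 level. Cd3g, a further chain of CD3, fell 2.38-fold, with 12.87, 12.78 and 12.95 on TN4 arrays against 14.13, 13.99 and 14.23 on TN3a arrays (limma adjusted p = 0.0053).

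The genes that rose encode surface receptors and a kinase. Cd2, an adhesion receptor of T cells, had 7.99, 9.6 and 9.18 on TN4 arrays against 4.23, 4.3 and 4.43 on TN3a arrays, where it was not detected, a difference of at least 23.1-fold (limma adjusted p = 5.26e-06). Cd6, a receptor that binds ALCAM, had 10.37, 11.75 and 11.23 on TN4 arrays against 8.22, 8.96 and 8.53 on TN3a arrays and rose 5.84-fold (limma adjusted p = 0.000193). Zap70, the kinase that binds phosphorylated CD3 chains, had 10.97, 11.46 and 11.3 on TN4 arrays against 9.2, 9.48 and 9.3 on TN3a arrays and rose 3.77-fold (limma adjusted p = 0.000969). Cd28, whose protein was also used in the sort, was the fourth, so its rise is no separate evidence for this list. Fyn (0.74, limma adjusted p = 0.54) and Lat (-0.66, limma adjusted p = 0.346) did not pass.

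The Ptcra promoter is shown because this gene belongs to both lists. Of 14 Notch-list genes with a promoter in RefSeq's table (GRCm38.p6), 4 (28.6%) held TGGGAA on either strand in the 250 bases before a start, the core letters that RBPJ reads, against 24.1% of 27025 genes. Of the 5 among them that were called, only Ptcra held it (20%), while 35% of kept S phase genes did. Ptcra lies on the minus strand, its window is chr17:46763713-46763962, and its 2 matches, in capitals, begin 84 and 32 bases before the start.
Ptcra: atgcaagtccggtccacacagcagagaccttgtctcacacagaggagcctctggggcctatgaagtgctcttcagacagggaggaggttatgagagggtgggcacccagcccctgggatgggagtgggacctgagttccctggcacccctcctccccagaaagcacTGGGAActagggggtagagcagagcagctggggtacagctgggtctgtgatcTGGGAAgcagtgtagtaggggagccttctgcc

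Both recombinase genes were lower in TN4 cells. Rag1 had levels of 9.73, 9.01 and 9.17 on TN4 arrays against 11.23, 11.38 and 10.85 on TN3a arrays, a 3.61-fold fall (limma adjusted p = 0.00704). Rag2 had 5.33, 4.86 and 5.32 on TN4 arrays against 6.23, 6.22 and 6.81 on TN3a arrays, a 2.38-fold fall (limma adjusted p = 0.0372, and 0.0669 without TN4 replicate 1). From TN3a on, Rag1 was lowest at TN3b and TN4, with means of 11.16 at TN3a, 8.88 at TN3b, 9.3 at TN4, 10.08 at ISP and 12.83 at DP.

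Dntt, which encodes terminal transferase, had 10.72, 9.66 and 9.82 on TN4 arrays against 12.07, 11.2 and 11.17 on TN3a arrays, with a limma adjusted p of 0.0709, of 0.00103 with slide as a block and of 0.0395 without TN4 replicate 1. Of the 11 genes of V(D)J recombination 2 fell and 0 rose (median -0.36), beside 3.82% and 3% of all genes. With slide as a block 4 passed, and Hmgb2, a chromatin protein of dividing cells, was higher there (limma adjusted p = 0.11 without the block and 0.0395 with it). The genes for the end-joining proteins Xrcc6 (-0.45), Prkdc (-0.37), Lig4 (-0.14) and Atm (-0.04) did not pass.

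Genes of G2 and mitosis were the list with the most calls. Of 22 genes 18 rose and 0 fell, all 22 differences were positive, and the median was 1.68. Without TN4 replicate 1, 16 rose, and with slide as a block 20 did, where Ccna2 (limma adjusted p = 0.125 without it and 0.00489 with it) and Kif23 (0.128 and 0.0203) passed. Under median scaling 0 of them passed, with a median of 1.59 and all 22 differences again positive, and 14 passed when the dim TN2 array was also left out.

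Plk1, the kinase that drives entry into mitosis, had levels of 11.14, 10.87 and 10.82 on TN4 arrays, against 8.39, 8.72 and 8.9 on TN3a arrays. It rose 4.82-fold (log2 difference 2.27, SE 0.2, limma adjusted p = 1.76e-05). Aurkb, a kinase of the chromosomal passenger complex, had 10.07, 9.43 and 9.94 on TN4 arrays against 7.5, 7.7 and 8.39 on TN3a arrays and rose 3.86-fold (limma adjusted p = 0.0043). Aurka, a spindle pole kinase, had 9.74, 10 and 10.06 on TN4 arrays against 7.15, 8.16 and 8.66 on TN3a arrays and rose 3.84-fold (limma adjusted p = 0.00495). In each of these genes the lowest TN4 array lay above the highest TN3a array.

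Cdk1, the mitotic cyclin-dependent kinase, rose 3.65-fold, with 9.58, 10.06 and 10.14 on TN4 arrays against 7.39, 8.22 and 8.56 on TN3a arrays (limma adjusted p = 0.00575). Cdc25c, the phosphatase that activates it, rose 3.79-fold (limma adjusted p = 0.0032). Birc5 (survivin) rose 3.63-fold with 11.45, 11.22 and 11.25 on TN4 arrays against 9.02, 9.58 and 9.74 on TN3a arrays (limma adjusted p = 0.000144). Kif11, a spindle motor, rose 3.56-fold (limma adjusted p = 0.00319) and Mad2l1, a spindle checkpoint protein, 3.38-fold (limma adjusted p = 0.00104). Other members rose by less, down to 2.61-fold for Nusap1, and among them Tpx2 (limma adjusted p = 0.0794) and Top2a (0.0588) did not pass without TN4 replicate 1. TN3a replicate 1 was the dimmest of the 6 arrays for 15 of the 22 genes, Plk1, Aurka, Aurkb, Cdk1, Cdc25c, Birc5, Kif11, Mad2l1, Cdc20 and Mki67 among them.

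Promoters of this list are shown because its genes moved together. In RefSeq's promoter table (GRCm38.p6), 14 of the 18 genes that rose have a start. In the 250 bases before it, 11 of the 14 (78.6%) held CCAAT on either strand, the letters of the box that NF-Y binds, against 37.5% of 27025 genes. The letters TTTGAA, known as the cell cycle homology region in late cell cycle promoters, stood in 6 of the 14 (42.9%), against 18.3% of all genes. Over all 17 kept members with a promoter the shares were 82.4% and 41.2%. CCAAT also stood above the share of all genes in the kept members of other lists, at 55% for S phase, 57.1% for Notch and 50% for genes induced by pre-TCR signals, where TTTGAA stood in 15%, 21.4% and 10%. Windows are chr10:69352913-69353162 for Cdk1, chr2:172370571-172370820 for Aurka, chr4:118437344-118437593 for Cdc20 and chr7:135716380-135716629 for Mki67, all on the minus strand. Capitals mark CCAAT (or ATTGG, its reverse) and TTTGAA, no match overlaps another, and a match is a description of letters only.
Cdk1: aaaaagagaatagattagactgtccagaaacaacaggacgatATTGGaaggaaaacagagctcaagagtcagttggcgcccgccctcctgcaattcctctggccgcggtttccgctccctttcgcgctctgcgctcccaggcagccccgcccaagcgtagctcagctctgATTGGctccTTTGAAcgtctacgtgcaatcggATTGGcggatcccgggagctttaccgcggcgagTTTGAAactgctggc
Cdc20: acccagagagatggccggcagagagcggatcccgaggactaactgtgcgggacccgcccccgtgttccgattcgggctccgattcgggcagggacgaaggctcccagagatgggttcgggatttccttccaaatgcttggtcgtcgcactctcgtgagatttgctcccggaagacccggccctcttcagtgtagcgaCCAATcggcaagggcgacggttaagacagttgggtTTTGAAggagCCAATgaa
Mki67: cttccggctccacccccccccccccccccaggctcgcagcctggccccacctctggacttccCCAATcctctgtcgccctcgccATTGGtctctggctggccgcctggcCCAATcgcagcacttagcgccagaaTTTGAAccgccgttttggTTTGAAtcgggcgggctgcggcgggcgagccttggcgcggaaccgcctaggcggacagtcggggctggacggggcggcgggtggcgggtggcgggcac
Aurka: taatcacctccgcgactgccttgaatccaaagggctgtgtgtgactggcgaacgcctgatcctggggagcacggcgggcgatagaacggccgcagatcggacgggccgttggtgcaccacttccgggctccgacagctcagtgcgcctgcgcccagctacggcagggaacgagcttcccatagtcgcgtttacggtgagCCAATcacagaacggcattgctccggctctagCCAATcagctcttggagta

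The last TTTGAA of Cdk1 begins 15 bases before the start, with CCAAT boxes on the reverse strand at 48, 80 and 208 bases. In Cdc20 TTTGAA begins at 18 bases, between CCAAT boxes at 53 and 8 bases. Mki67 holds 2 TTTGAA matches, at 116 and 98 bases, and Aurka holds 2 CCAAT boxes and no TTTGAA in this window. Cdc20, which activates the ligase that ends mitosis, rose 3.2-fold, with 11.09, 11.18 and 11.1 on TN4 arrays against 9.22, 9.57 and 9.55 on TN3a arrays (limma adjusted p = 0.000132). Mki67, which encodes the proliferation marker Ki-67, rose 3.04-fold, with 11.37, 11.44 and 11.36 on TN4 arrays against 9.34, 9.73 and 10.29 on TN3a arrays (limma adjusted p = 0.00201).

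Of 25 genes of S phase and replication 13 rose and 0 fell, and 24 differences were positive (median 1.15). Cyclin E drives the start of S phase, and its gene Ccne1 had levels of 7.92, 7.21 and 7.72 on TN4 arrays against 5.08, 5.67 and 5.4 on TN3a arrays. It rose 4.7-fold (limma adjusted p = 0.000249). Ccne2 rose 4.34-fold, with 7.63, 7.03 and 7.51 on TN4 arrays against 5.11, 4.96 and 5.75 on TN3a arrays (limma adjusted p = 0.0015). Rrm2, a subunit of ribonucleotide reductase, rose 4.39-fold, with 9.65, 9.69 and 9.79 on TN4 arrays against 6.99, 7.9 and 7.84 on TN3a arrays (limma adjusted p = 0.000462).

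The replication helicase gene Cdc45 rose 3.74-fold (limma adjusted p = 0.000917) and the origin licensing gene Cdc6 2.93-fold (limma adjusted p = 0.00805). Rises were smaller for the licensing factor Cdt1 (2.11-fold), Mcm5 (1.76-fold) and Mcm2 (1.65-fold), the last 2 subunits of the replicative helicase. Pcna, the sliding clamp, had 8.8, 9.17 and 7.99 on TN4 arrays against 6.88, 8.08 and 6.47 on TN3a arrays, groups that overlapped. Its limma adjusted p was 0.198, and 0.00224 with slide as a block. Tk1, thymidine kinase, likewise had a limma adjusted p of 0.224 and of 0.0105 with the block.

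The S phase count depended on single arrays. Without TN4 replicate 1, 8 of 25 rose, and Pole, Tyms, Gins1, Mcm5 and Mcm2 no longer passed (limma adjusted p = 0.054, 0.102, 0.0888, 0.064 and 0.0589). Without TN3a replicate 1, 8 rose as well, and with slide as a block 19 did. Under median scaling 0 passed, with a median of 1.08, and 7 when the dim TN2 array was also left out. In the 250 bases before a start, 4 of 20 S phase genes (20%) held the E2F letters GCGGGAA and 2 (10%) TTGGCGC, against 4.4% and 2.3% of all genes. In kept members of other lists the 2 shares were 0% and 11.8% for G2 and mitosis and 14.3% and 7.1% for Notch. For genes induced by pre-TCR signals they were 10% and 0%. No share in these other lists rested on more than 2 genes. Whether the letters are particular to S phase genes therefore cannot be told.

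**Figure D3:**
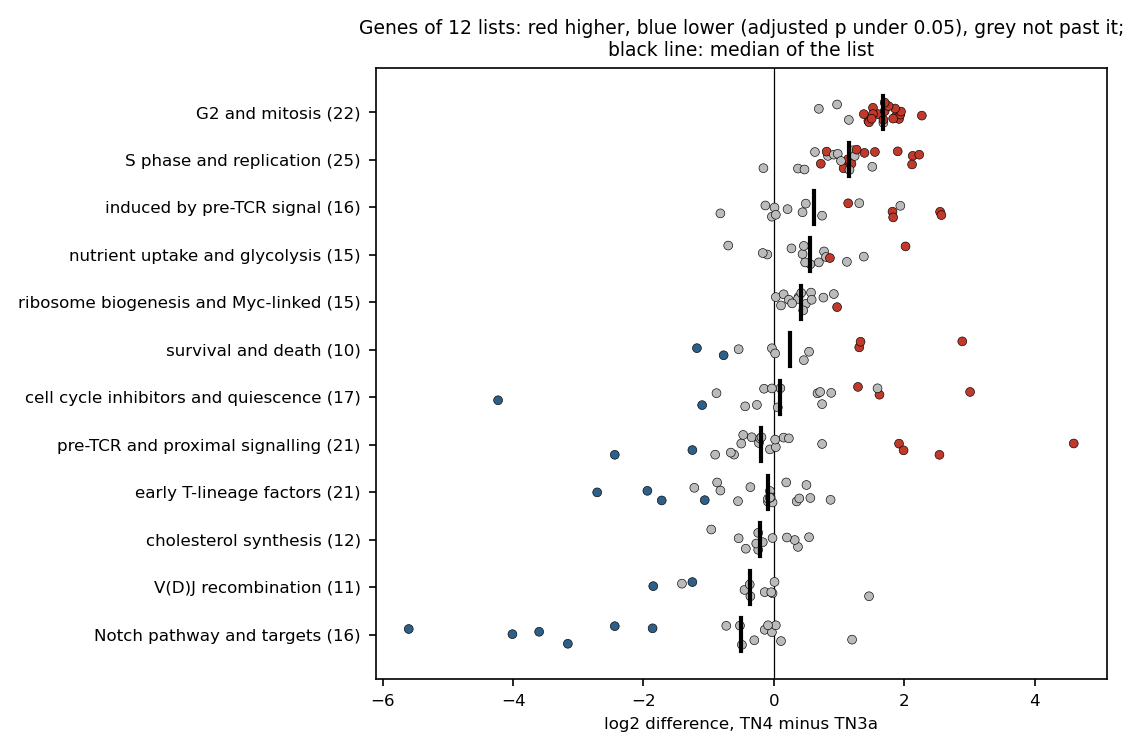
Log2 difference TN4 minus TN3a (x axis) of each gene in 12 lists (rows, number of genes in brackets), 1 point a gene, red for higher and blue for lower at adjusted p under 0.05 and grey otherwise. Black lines are list medians, from 1.68 for G2 and mitosis to -0.5 for Notch genes, where 6 of 16 points are blue.

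Among cell cycle inhibitors and genes of quiescence, 3 of 17 rose and 2 fell (median 0.1), beside 3% and 3.82% of all genes. Cdkn1a, which encodes the p53-induced inhibitor p21, had levels of 5.71, 4.96 and 5.39 on TN4 arrays, against 10.11, 9.14 and 9.53 on TN3a arrays. Those groups lay far apart, and Cdkn1a was 18.8-fold lower (limma adjusted p = 1.13e-05). Trp53inp1, another gene induced by p53, fell 2.15-fold (limma adjusted p = 0.0251, and 0.0838 without TN4 replicate 1). Klf2, a transcription factor of resting and migrating T cells, had 7.58, 8.61 and 8.32 on TN4 arrays against 6.29, 4.81 and 4.36 on TN3a arrays and rose 8.08-fold (limma adjusted p = 0.00155), with detection on 2 of 3 TN3a arrays. Its mean was 5.17 at TN3b and 5.12 at ISP, below the TN4 level on either side. Cdkn1c (p57) rose 3.08-fold (limma adjusted p = 0.0146) and Rb1, the retinoblastoma gene, 2.45-fold (limma adjusted p = 0.00875). Cdkn2c (p18) had 9.18, 8.58 and 8.66 on TN4 arrays against 7.86, 6.86 and 6.94 on TN3a arrays, with a limma adjusted p of 0.0873, and of 0.0174 with slide as a block. Btg1, an antiproliferative gene, had a log2 difference of -0.88 (limma adjusted p = 0.057, and 0.0331 with the block).

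Of the D cyclins and their kinases, 1 of 6 passed (median 0.01), beside 6.81% of all genes. Ccnd3, cyclin D3, which thymocytes need to multiply after beta-selection, had 12.34, 12.53 and 12.9 on TN4 arrays against 11.16, 11.61 and 11.58 on TN3a arrays, a 2.2-fold rise (limma adjusted p = 0.00535). Ccnd2 had 8.44, 9.83 and 9.52 on TN4 arrays against 9.72, 10.98 and 10.8 on TN3a arrays, which overlapped. It was lower in TN4 cells within each slide, with log2 differences of -1.28, -1.15 and -1.28 (limma adjusted p = 0.276, and 0.00715 with slide as a block).

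Of the genes known to be induced by pre-TCR signals, 5 of 16 rose and 0 fell (median 0.61), and 8 rose without TN4 replicate 1. The zinc finger factor Egr3 had levels of 6.23, 8.99 and 8.46 on TN4 arrays against 5.9, 4.97 and 5.1 on TN3a arrays and rose 5.95-fold (limma adjusted p = 0.0108). Egr2, with 6.33, 8.33 and 7.68 on TN4 arrays against 5.18, 4.69 and 4.82 on TN3a arrays, rose 5.85-fold (limma adjusted p = 0.00185). Egr1 rose 3.54-fold (limma adjusted p = 0.0117). In all 3 Egr genes TN4 replicate 1 was the lowest TN4 array, and without it the log2 differences of Egr3, Egr2 and Egr1 were 3.39, 3.09 and 2.19.

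Id3, an inhibitor of E proteins and a target of Egr factors, had 7.64, 8.37 and 8.14 on TN4 arrays against 6.54, 6.3 and 5.81 on TN3a arrays and rose 3.57-fold (limma adjusted p = 0.00168). The early activation antigen Cd69 had 6.78, 9.51 and 8.73 on TN4 arrays against 6.49, 6.42 and 6.28 on TN3a arrays (limma adjusted p = 0.101, and 0.00804 without TN4 replicate 1). Dusp6, a phosphatase that limits ERK, did likewise, with 6.67, 8.94 and 8.32 on TN4 arrays against 7.19, 6.44 and 6.38 on TN3a arrays (limma adjusted p = 0.132 and 0.00222). Fos passed without TN4 replicate 1 (limma adjusted p = 0.213 and 0.0382). Without TN4 replicate 3, or without TN3a replicate 2, 3 genes of this list passed. Nfatc1 had a log2 difference of -0.82 (limma adjusted p = 0.387, and 0.043 with slide as a block).

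Genes of immediate early stress, which handling can induce, gave 2 higher and 1 lower of 12 (median 0.13), beside 3% and 3.82% of all genes. The heat shock genes Hspa1a and Hspa1b were brightest on TN3a replicate 2, at 7.46 and 7.35, against 4.35 to 4.81 on the other TN3a arrays. Neither passed (limma adjusted p = 0.574 and 0.496). Zfp36, an RNA-binding protein that destabilises mRNA, rose 5.07-fold (limma adjusted p = 0.00233) and Ier3, detected on 1 of 3 TN4 arrays, fell 2.07-fold (limma adjusted p = 0.0141). Egr1 belongs to this list too, and the part of handling in the Egr differences was not tested.

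Of 21 early T-lineage transcription factors 0 rose and 4 fell (median -0.09), beside 3% and 3.82% of all genes. Bcl11a, a factor of progenitors and B cells, was not detected on TN4 arrays (4.3, 4.3 and 4.17), against 7.3, 7.06 and 6.52 on TN3a arrays, at least 5.86-fold lower (limma adjusted p = 0.000165). Spib, an Ets family factor, had 4.59, 4.8 and 4.41 on TN4 arrays against 6.68, 6.57 and 6.36 on TN3a arrays, 3.83-fold lower between the measured means (limma adjusted p = 4.04e-05). Only 1 of the 3 TN4 arrays detected Spib, so the size of its fall is uncertain. The Spib stage means were 4.44 at TN2, 4.39 at TN3b and 4.37 at ISP, so TN3a alone was high among these. Runx1 fell 3.3-fold (limma adjusted p = 0.041) and Bcl11b, required for T cell commitment, 2.09-fold (limma adjusted p = 0.0275), and neither passed without TN4 replicate 1 (limma adjusted p = 0.111 and 0.056). Myb (-1.22) had a limma adjusted p of 0.118, and of 0.0177 with slide as a block. Lef1 (0.87), Gfi1 (-0.87), Sox4 (-0.82) and Ikzf1 (0.56) did not pass.

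Among 10 genes of survival and death 3 rose and 2 fell (median 0.24), beside 3% and 3.82% of all genes. Bcl2a1d, a member of the antiapoptotic A1 family whose copies are near-identical, so that its probe may read several, had 5.08, 9.04 and 7.95 on TN4 arrays against 4.22, 4.82 and 4.38 on TN3a arrays and rose 7.4-fold (limma adjusted p = 0.0282), with detection on 1 of 3 TN3a arrays. The death receptor gene Fas rose 2.51-fold (limma adjusted p = 0.00779) and Bid, its mitochondrial link, 2.48-fold (limma adjusted p = 0.0041). Bcl2 had 6.94, 7.38 and 6.89 on TN4 arrays against 8.49, 8.27 and 7.98 on TN3a arrays and fell 2.26-fold (limma adjusted p = 0.0315, and 0.0987 without TN4 replicate 1). Mcl1 fell 1.7-fold (limma adjusted p = 0.0479), and did not pass without TN4 replicate 1 (0.146) or with slide as a block (0.0523). Bcl2l1, which encodes Bcl-xL (0.54), Bbc3 (-0.54), Bak1 (0.46) and Bcl2l11 (-0.03) did not pass.

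Of 12 cytokine and chemokine receptor genes 1 rose and 2 fell (median -0.29), beside 3% and 3.82% of all genes. Il7r, the receptor for interleukin 7 that sustains earlier thymocytes, had 8.29, 9.1 and 8.33 on TN4 arrays against 10.05, 9.76 and 9.86 on TN3a arrays and fell 2.49-fold (limma adjusted p = 0.00563). It was lower again at ISP, with a mean of 5.95. Kit was the other member that fell. Tnfrsf9 (4-1BB), detected on 1 of 3 TN3a arrays, rose 2.74-fold (limma adjusted p = 0.0183). Cxcr4 (-0.71, limma adjusted p = 0.0766), Ccr7 (1.01, 0.1) and Ltb (-0.86, 0.166) did not pass.

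In the 3 metabolic lists 3 of 42 genes passed (7.14%), near the 6.81% of all genes. Of 15 genes of nutrient uptake and glycolysis 2 rose and 0 fell (median 0.56, 12 of 15 positive). Pfkp, a phosphofructokinase, rose 4.06-fold, with 9.05, 8.01 and 8.23 on TN4 arrays against 7.24, 5.86 and 6.13 on TN3a arrays (limma adjusted p = 0.0175). Ldha, lactate dehydrogenase, rose 1.81-fold (limma adjusted p = 0.0288). Neither passed without TN4 replicate 1 (limma adjusted p = 0.0749 and 0.0717), where the glucose transporter gene Slc2a3 did (0.184 with all 3 TN4 arrays and 0.035 without). Pgk1 (0.8) and Tpi1 (0.69), both of glycolysis, passed with slide as a block (limma adjusted p = 0.0866 and 0.0566 without it, 0.0197 and 0.0322 with it). The transferrin receptor gene Tfrc had 9.28, 10.31 and 10.63 on TN4 arrays against a wide 6.36, 9.58 and 10.12 on TN3a arrays (limma adjusted p = 0.506).

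Of 15 genes of ribosome biogenesis and of targets linked to Myc 1 rose (median 0.42), and all 15 differences were positive. Odc1, the first enzyme of polyamine synthesis, rose 1.96-fold, with 11.61, 11.38 and 11.85 on TN4 arrays against 10.34, 10.66 and 10.92 on TN3a arrays (limma adjusted p = 0.0154). Cad, of pyrimidine synthesis, had a limma adjusted p of 0.0775, and of 0.0367 with slide as a block. Of 12 genes of cholesterol synthesis 0 passed (median -0.2), and the widest difference was that of Dhcr7 (-0.96, limma adjusted p = 0.134).

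Of 13 genes linked to the approach to double positive cells 0 rose and 4 fell (median -0.5), the Rag genes, Ly6d and Aqp11. Without TN4 replicate 1, 1 rose and 3 fell, with a median of 0.03. Cd8b1 counts here by its brightest probe (-0.14), which was dimmer in DP cells than in ETP, so its place in the count says little. Its other probes were higher in TN4 cells by 6.02 and 4.79. Ly6d, a surface protein, had 11.27, 10.96 and 11.17 on TN4 arrays against 13.03, 12.94 and 12.46 on TN3a arrays and fell 3.19-fold (limma adjusted p = 0.00117). Aqp11, an aquaporin, fell 3.14-fold (limma adjusted p = 0.0026). Both were near the TN3a level again in DP cells, with DP means of 12.54 and 12.44. Arpp21 (-0.94), Itgae (-0.54) and Themis (-0.5) did not pass.

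With each gene given by its brightest probe, the 12 largest rises in TN4 cells included Cd2, described above. The 2 dimmer Cd8b1 probes, at 6.02 and 4.79 on the log2 scale, lie outside this ranking. The probe assigned to Trav9n-4, a variable segment of the T cell receptor alpha locus whose copies share sequence, had 9.91, 11.41 and 11.01 on TN4 arrays against 5.26, 4.95 and 5.05 on TN3a arrays. It was 51.5-fold higher (limma adjusted p = 1.61e-06), with stage means of 7.64 at TN3b, 9.92 at ISP and 12.55 at DP. Lgals3, which encodes galectin-3, had 7.69, 9.79 and 9.34 on TN4 arrays against 4.22, 4.43 and 4.11 on TN3a arrays, where it was not detected, at least 23.5-fold higher (limma adjusted p = 1.32e-05). Outside TN4 it was near background from TN3a on, with means of 4.16 at TN3b, 4.24 at ISP and 4.24 at DP.

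St6gal1, a sialyltransferase, rose 24.6-fold (limma adjusted p = 0.000933), with 9.24, 10.85 and 10.29 on TN4 arrays against 5.86, 5.25 and 5.4 on TN3a arrays. Ckb, brain creatine kinase, rose 18.1-fold, Prdx4, a peroxiredoxin of the endoplasmic reticulum, 12.5-fold, and Bambi-ps1, a pseudogene that may share signal with its parent gene, 11.5-fold (limma adjusted p = 0.000476, 7.1e-05 and 4.42e-05). Prdx4 was the most even of these on TN4 arrays, with 11, 11 and 10.96 on TN4 arrays against 6.68, 7.8 and 7.56 on TN3a arrays. Pdlim4, a cytoskeletal adaptor, was at least 14.5-fold higher and Cldn10, a claudin, at least 13.9-fold higher, both undetected on TN3a arrays (limma adjusted p = 5.57e-06 and 0.00319). Tspan32, a tetraspanin, rose 14.2-fold between the measured means, Ephx1, an epoxide hydrolase, 13.7-fold, and Myo6, an unconventional myosin, 10.6-fold (limma adjusted p = 0.00117, 0.000587 and 3.73e-05). Tspan32 was detected on 1 of 3 TN3a arrays, so the size of its rise is uncertain. Cldn10 had an SD of 1.87 on TN4 arrays, wider than the spread over all stages that its p-value rests on. For Cldn10, Tspan32, Ckb and Ephx1, TN4 replicate 1 lay well below the others, at 6.13, 6.4, 7.86 and 7.36, against 9.35 to 9.39, 8.51 to 9.43, 9.79 to 10.72 and 9.47 to 9.92 on the other TN4 arrays.

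The 12 largest falls, ranked likewise, included Il2ra and Cdkn1a, described above. Gm5111, a predicted gene, had no detected signal on TN4 arrays (4.65, 4.53 and 4.39), against 10.11, 10.49 and 10.21 on TN3a arrays, at least 53.7-fold lower (limma adjusted p = 9.05e-08). Pld4, an endolysosomal nuclease, had 5.3, 5.5 and 5.28 on TN4 arrays against 10.34, 11.28 and 11.55 on TN3a arrays, 52-fold lower (limma adjusted p = 1.55e-05). Scin, an actin-severing protein, was 51.1-fold lower, with 4.95, 4.89 and 4.16 on TN4 arrays against 11.5, 9.94 and 9.58 on TN3a arrays (limma adjusted p = 0.000125). No TN4 array was above 5.5 for any of these 3 genes, and Scin was detected on 2 of 3 TN4 arrays.

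Myl10, a myosin light chain, fell 38.5-fold, Itgb4, integrin beta 4, 35.7-fold, and H19, an imprinted noncoding RNA, 33.8-fold (limma adjusted p = 0.000808, 1.9e-06 and 3.62e-06). H19 was still at 7.48, 8.26 and 7.73 on TN4 arrays, against 12.49, 12.92 and 13.29 on TN3a arrays, and averaged 5.37 at ISP. Lyz1, a lysozyme gene with the close copy Lyz2, from which its probe may not be told apart, fell 34.7-fold between the measured means (limma adjusted p = 7.55e-07), with detection on 1 of 3 TN4 arrays, so the size of its fall is uncertain. Nfe2, a factor of red cell and platelet precursors, fell 26.9-fold, Scn4b, a sodium channel subunit, 22.1-fold, and Cd59a, which restrains complement, 20.2-fold (limma adjusted p = 7.55e-07, 6.93e-06 and 2.07e-06). Nfe2 and Scn4b were each detected on 2 of 3 TN4 arrays.

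**Figure D4:**
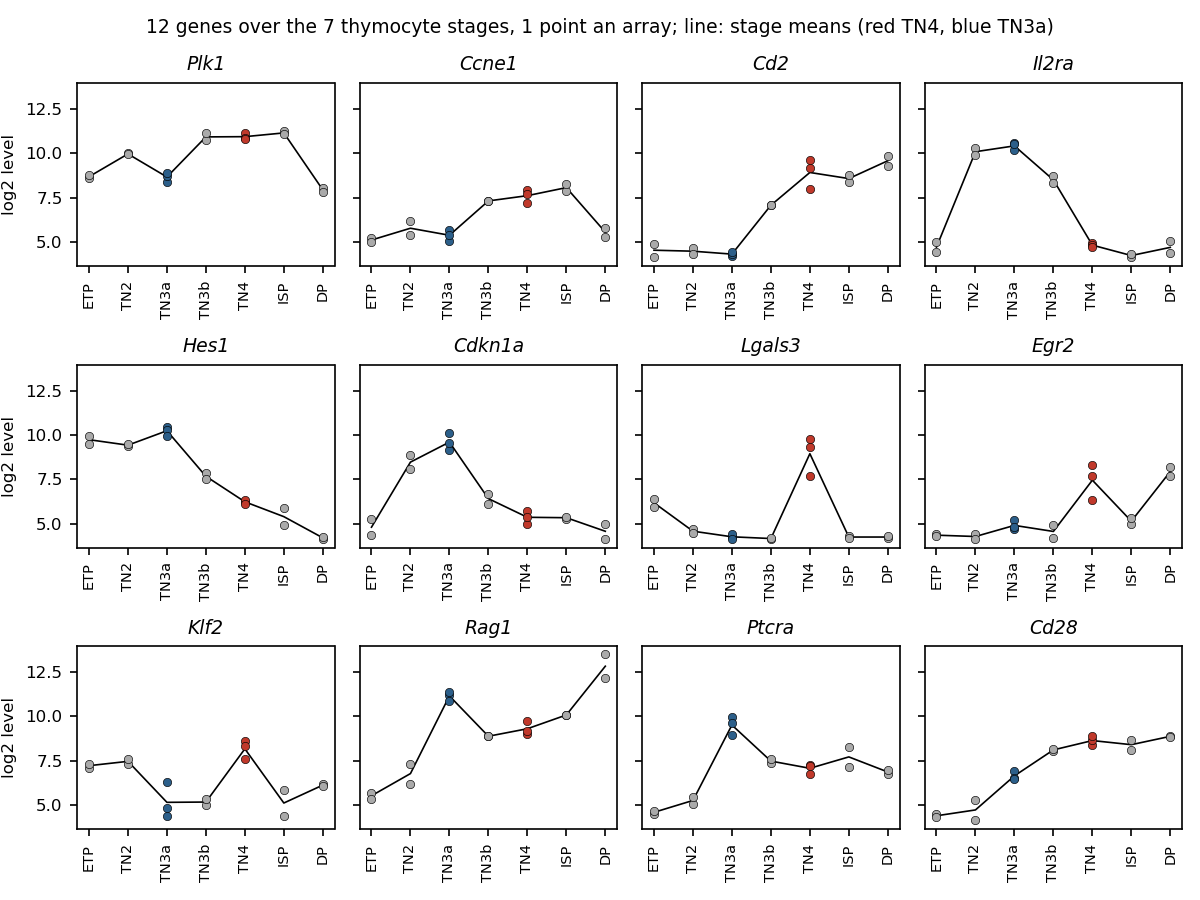
Log2 levels (y axis) of 12 genes over the 7 thymocyte stages (x axis), 1 point an array, with TN4 in red, TN3a in blue and a line through the stage means. Plk1 and Ccne1 are already high at TN3b, Il2ra falls over TN3b and TN4, and Lgals3 averages 8.94 at TN4 against 4.16 at TN3b and 4.24 at ISP.

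TN3b, the stage between, differed from TN3a in far more genes than from TN4. TN3b differed from TN3a in 778 of 13485 genes (5.77%), while TN4 differed from TN3b in 15 genes (0.111%) and ISP from TN4 in 30 (0.222%). In probes these counts were 1125, 22 and 37, and at an unadjusted p under 0.05 they were 3868, 880 and 951. With slide as a block they were 1805, 9 and 25, and under median scaling 42, 1 and 3, beside 175 for TN4 against TN3a. Without TN3a replicate 1, 2 or 3 the TN3b against TN3a count was 668, 701 or 803. These comparisons share arrays with TN4 against TN3a and are not independent of it. At TN3b the median gene that was higher in TN4 cells had covered 93.3% of its way from the TN3a to the TN4 mean, and the median lower gene 90.5%. TN4 against TN3b rested strongly on single arrays, with 156 probes without TN4 replicate 1 but 5 without TN4 replicate 2 and 3 without TN4 replicate 3. ISP against TN4 gave 168, 17 and 16 probes in the same order.

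The genes below were named after their values were seen. Of the 15 genes between TN4 and TN3b, Il2ra was lower again, with a TN4 mean of 4.83 against a TN3b mean of 8.5 (log2 difference -3.68, limma adjusted p = 0.000104). Another 7 genes were higher at TN4 than at either neighbour. Nt5e, which encodes the ectoenzyme CD73, averaged 7.58 at TN4, against 4.23 at TN3a, 4.3 at TN3b and 4.22 at ISP. Myo6 averaged 8.76 at TN4, against 5.35, 5.42 and 4.57 in the same stages, Igfbp4, a binding protein of insulin-like growth factors, 8.97 against 6.89, 6.39 and 4.17, and Fcer1g, a signalling chain of Fc receptors, 7.57 against 6.03, 4.61 and 4.14. The other 3 were Lgals3, the probe assigned to Trav11d, a further alpha variable segment (7.1 against 4.48, 4.7 and 4.63), and BC106179 (6.48 against 4.22, 4.38 and 4.26). Nt5e, Myo6, Igfbp4, Fcer1g and Lgals3 passed for TN4 against TN3b (limma adjusted p = 0.0357, 0.00377, 0.0159, 0.00657 and 0.000933) and for ISP against TN4 (0.0263, 0.000404, 0.000127, 0.000606 and 0.000457). For Trav11d and BC106179 these values were 0.0446 and 0.0258 for TN4 against TN3b and 0.0287 and 0.0125 for ISP against TN4 (limma).

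Egr2 (7.44 at TN4 and 4.56 at TN3b, limma adjusted p = 0.0304) and Bcl6, a transcriptional repressor (8.33 and 6.07, limma adjusted p = 0.0208), also rose between TN3b and TN4. Il7r, Nkg7 and Tcrg-V4 were among the genes still present at TN4 and lower at ISP, with ISP minus TN4 log2 differences of -2.62, -3.61 and -2.83 (limma adjusted p = 0.000785, 0.000457 and 0.0194).

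Single bright genes in marker lists of other cell types were lower in TN4 cells, while most members of the gamma-delta and NK lists were not. Over all genes 3.82% were lower and 3% higher in TN4 cells. Over 6 kept gamma-delta T cell genes the summed linear level was 2124 to 3359 on TN4 arrays, against 6878 to 9594 on TN3a arrays, and 1 of 6 passed, Tcrg-V4, with the other 5 differences positive. That variable segment of the gamma locus had 10.4, 10.64 and 10.42 on TN4 arrays against 12.98, 12.55 and 13.07 on TN3a arrays and fell 5.2-fold (limma adjusted p = 0.00194), with the reservation that segments of the locus share sequence. Sox13 (0.19), Blk (0.83), Zbtb16 (0.45) and Cd163l1 (0.23) did not pass. Of 8 NK and innate-like genes 6 differences were positive and 1 gene fell, Nkg7, a granule protein with means of 8.46 in TN4 and 10.98 in TN3a cells (5.72-fold, limma adjusted p = 0.00019), and the sums were 1360 to 1950 on TN4 arrays against 3067 to 3897 on TN3a arrays. Klrd1, an NK receptor chain, was detected on TN4 replicates 2 and 3, with levels of 4.24, 6.72 and 6.18 on TN4 arrays against 4.12, 4.11 and 4.12 on TN3a arrays (limma adjusted p = 0.101, and 0.00187 without TN4 replicate 1). Median differences were 0.21 for the gamma-delta and 0.17 for the NK list.

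Of 6 B cell genes 2 fell, beside 3.82% of all genes. They were Cd79b (5.33-fold, limma adjusted p = 0.000197) and Vpreb1 (2.24-fold, limma adjusted p = 0.0164). The sums of the list were 497 to 650 on TN4 arrays against 1292 to 1738 on TN3a arrays (median -0.06). Ebf1 and Ms4a1, which define B cells, were each detected on 0 TN4 arrays and 1 TN3a array. Of 13 myeloid and dendritic genes 1 rose and 3 fell (median -0.04), beside 3% and 3.82% of all genes. The 3 were Lyz1, Lyz2 and Ly6c1, and the gene that rose was Fcer1g (2.91-fold, limma adjusted p = 0.00942). Their sums were 553 to 715 on TN4 arrays against 1193 to 2175 on TN3a arrays, while Tyrobp, Mpo, Ctsg, Elane and S100a8 were detected on none of the 6 arrays. Sums for 5 erythroid and platelet genes were 111 to 196 on TN4 arrays against 104 to 125 on TN3a arrays (median 0.38), and for 4 stromal genes 139 to 202 on TN4 arrays against 172 to 228 on TN3a arrays (median -0.12), with 0 calls in both lists. The part of other cells in the results above was not tested.

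Leaving out TN4 replicate 1 changed the calls of 2 groups of genes. Calls were lost for 110 higher and 144 lower genes and won for 82 higher and 25 lower genes. Many lost calls also depended on the dim TN2 array. Of 96 named genes called with all arrays, 20 lost their call without TN4 replicate 1. Only 6 did when that TN2 array was left out too. The largest rises that lost their call without TN4 replicate 1 alone were 5 histone genes and Pfkp. H3c7, a histone H3 gene of the clusters expressed in S phase, had 11.1, 10.66 and 10.48 on TN4 arrays against 8.4, 8.87 and 8.09 on TN3a arrays (limma adjusted p = 0.0164, and 0.0644 without TN4 replicate 1). H3c1, H3c4, H2bc12 and H2bc21 did likewise, with log2 differences of 2.1, 2.09, 2.03 and 2.01 and adjusted p of 0.0572, 0.0529, 0.127 and 0.079 without it. Their differences moved little, to 2.11 for H3c7, 1.88 for H3c1, 1.96 for H3c4, 1.86 for H2bc12 and 1.82 for H2bc21 without TN4 replicate 1. Histone genes are near-identical copies, so their probes may not be told apart, and a dimmer H2bc21 probe was lower in TN4 cells (log2 difference -1.41, limma adjusted p = 0.0141).

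Among falls, the call was lost for Mzb1, a chaperone-linked protein of the endoplasmic reticulum, with 6.37, 7.88 and 7.96 on TN4 arrays against 9.76, 11.85 and 11.59 on TN3a arrays. Its limma adjusted p was 0.0298, 0.117 without TN4 replicate 1 and 6.78e-06 with slide as a block. Both stages were lowest on slide 4. Aldoc (5.3-fold, aldolase C), Gria3 (4.93-fold, a glutamate receptor), Rhobtb3 (4.86-fold), Card10 (4.25-fold) and Dyrk4 (at least 3.79-fold) also lost it, and Aldoc was detected on 1 of 3 TN4 arrays. Log2 differences without TN4 replicate 1 were -3.14 for Mzb1, -2.2 for Aldoc, -2.32 for Gria3, -2.14 for Rhobtb3, -1.65 for Card10 and -2.01 for Dyrk4, against -3.66, -2.41, -2.3, -2.28, -2.09 and -2.09 with all arrays.

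The 6 largest rises that won a call were bright on TN4 replicates 2 and 3. Il18r1, a receptor chain for interleukin 18, had 4.51, 8.62 and 6.89 on TN4 arrays against 4.1, 4.11 and 4.15 on TN3a arrays (limma adjusted p = 0.0816, and 0.00233 without TN4 replicate 1). Hs3st3b1, a heparan sulfate sulfotransferase, had 4.33, 7.35 and 6.6 on TN4 arrays against 4.51, 4.15 and 4.23 on TN3a arrays (limma adjusted p = 0.0744 and 3.68e-05). Btla, an inhibitory receptor, had 4.65, 7.76 and 6.8 on TN4 arrays against 4.35, 4.76 and 4.92 on TN3a arrays (limma adjusted p = 0.107 and 0.000403). Cd69, Arsb and Slfn1 were the others, and Slfn1 also passed with slide as a block (limma adjusted p = 0.0829 without it and 0.0478 with it). TN3b and ISP means were 4.27 and 4.19 for Il18r1, 4.13 and 4.25 for Hs3st3b1, and 5.1 and 4.83 for Btla, near TN4 replicate 1 and below TN4 replicates 2 and 3.

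The 6 largest falls that won a call were Nuak2, Tens1, Rec8, Tcrg (a gamma locus probe, open to the reservation above), B3gnt8 and Slc27a1, with adjusted p of 0.0234, 0.00619, 0.0481, 0.031, 0.0349 and 0.0441 without TN4 replicate 1 (limma). All 6 also passed with slide as a block and all 3 TN4 arrays (limma adjusted p = 0.0169, 0.0483, 0.00431, 0.0305, 0.00832 and 0.00362). Of 96 named genes called with all arrays, 76 were called without TN4 replicate 1, 75 without TN4 replicate 2 and 74 without TN4 replicate 3. Some of the 96 were named because they lost their call without TN4 replicate 1, so part of that loss was fixed by the choice. None of the 96 changed direction under any of the 17 alternative settings.

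Several named genes have further probes that gave another call. Of 147 genes with 2 or more called probes, H2bc21 was the only one called in opposite directions. Second probes of Arpp21, Btg1 and Ccnd2 fell in TN4 cells (log2 differences -1.61, -1.16 and -1.5, limma adjusted p = 0.0113, 0.0161 and 0.0251) although the brightest probe did not pass. The 2 dimmer Cdk1 probes differed by 0.05 and -0.09 (limma adjusted p = 0.988 and 0.949), a dimmer Egr3 probe by 0.16 (0.911), Spib by -0.01 (0.998) and Scn4b by -0.07 (0.964), each with stage means under 5. A dimmer H3c7 probe differed by -0.91 (limma adjusted p = 0.616), against the direction of the brightest. Further probes of Aqp11, Bcl11b, Bcl2, Bcl2a1d, Bid, Ccnd3, Cdc45, Cdc6, Fas, Gria3, H2bc12, Il7r, Kit, Lig1, Pole, Tnfrsf9 and Trp53inp1 differed in the direction of the brightest and did not pass. Of the further probes of Cd6 and Rrm2, 1 each did not pass (1.04 and 0.54), while others rose with the brightest (2.52 and 2.46 for Cd6 and 2.18 for Rrm2, limma adjusted p = 0.00102, 0.000789 and 0.004).

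**Figure D5:**
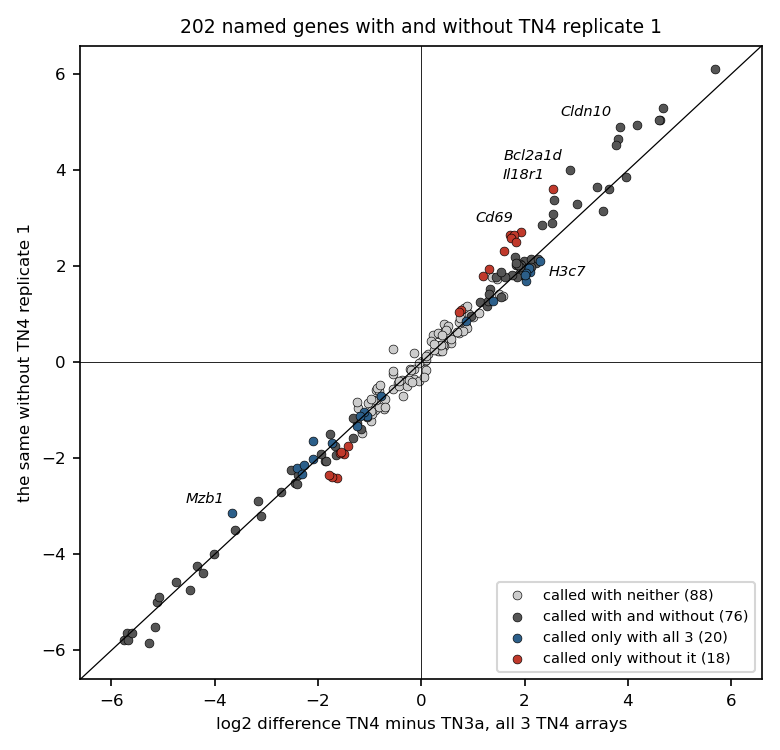
Log2 difference TN4 minus TN3a of 202 named genes with all 3 TN4 arrays (x axis) and without TN4 replicate 1 (y axis), 1 point a gene, with the line of equality. Dark grey points (76) are called both ways, blue points (20) only with all 3 arrays and red points (18) only without TN4 replicate 1, among them Il18r1 and Cd69. Many blue and red points were named because their call changed, so their number is no measure of how common such changes are.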

How the data were processed

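Bead intensity was read from the table of 46237 probes on 16 thymocyte arrays that the authors deposited. Its values are on a linear scale, and what was done to them before deposit is not given in the sources used here. Per the file headers, every intensity column is followed by a column of detection p-values. Probes were matched by ID. The authors' joint table of log2 values and the leukaemia arrays were not used.

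Background was corrected with normexp from the detection p-values (offset 16), followed by log2 and quantile normalisation over the 16 arrays (limma 3.58.1 under R 4.3.3). The log2 levels are thus computed from the deposited intensities. Probes with a detection p under 0.01 on at least 2 arrays were kept (24735). limma's lmFit and eBayes fitted 1 mean for each of 7 stages (9 residual degrees of freedom), 2-sided, with Benjamini-Hochberg adjustment over all kept probes and a threshold of 0.05.

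Genes were named through the platform annotation, where 35667 probes have 1 symbol and 10570 none, and 937 symbols were updated through gene ID or accession. A gene is given by its probe with the highest mean over the 16 arrays among those kept. Named were all sort markers, up to 8 genes of each of 23 lists, the 12 largest rises and falls, and up to 6 genes in each direction whose call changed without TN4 replicate 1. Members and lists were chosen with earlier results of these data known. Of 360 listed genes 275 were kept. A probe undetected on all arrays of the dimmer stage gives a bound, against the lowest detected level of each array. The number of arrays limits the precision. Slide marks a shared batch, and arrays on the same slide deviated together, so slide as a block is given where it changes a call. Alternatives changed 1 choice at a time, except for 1 that leaves out 2 arrays and 2 that combine choices, which were added after the data were seen. The fit was run on simulated data drawn independently for each array. Those data lack the shared deviations of arrays on 1 slide, so they do not show how such deviations affect the calls.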

Additional observations from a re-analysis of the deposited data

How the results depend on the processing

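The count of 1330 probes between TN4 and TN3a cells ranged from 791 to 1115 when 1 array of either stage was left out. It was 2098 with slide as a block, 175 under median scaling, and 3826 with slide as a block and the dim TN2 array left out. At 2-fold or more the 1103 probes became 642 with no background correction, 175 under median scaling and 1781 with slide as a block and that TN2 array left out; leaving out 1 array gave 771 to 1020. TN4 against TN3b, 22 probes, gave 9 with slide as a block and 3 to 156 without 1 array, and ISP against TN4, 37 probes, 16 to 168. TN3b against TN3a, 1125 probes, gave 1805 with slide as a block, 1885 without the dim TN2 array, 42 under median scaling and 668, 701 and 803 without TN3a replicate 1, 2 or 3. The 13 S phase genes became 0 under median scaling, 7 when the dim array was also left out, 22 with slide as a block and without it, and 8 to 11 without 1 array; the 18 genes of G2 and mitosis became 0 under median scaling and 15 to 17 without 1 array. The cause of these shifts was not tested. Of 96 named genes called, 95 were called with slide as a block and 33 under median scaling, and 0 reversed under any setting run. The replicate block here was slide, which same-numbered TN4 and TN3a arrays shared; not all same-numbered arrays of TN3b, ISP and DP did. Only 3 arrays a stage and dim probes near background limit the precision.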

Other observations

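All 30 genes that passed for ISP against TN4 were lower in ISP cells, and the genes named here were chosen after their values were seen. Ctsw, a cathepsin of cytotoxic lymphocytes, had a mean level of 9.4 at TN4 and 6.65 at TN3b, with a log2 difference ISP minus TN4 of -3.08 (limma adjusted p = 0.0377). Bach2, a transcriptional repressor of lymphocytes, averaged 7.11 at TN4 and 5.57 at TN3b, and differed by -2.24 (limma adjusted p = 0.0412). Gpr18, a receptor on lymphocytes, averaged 7.4 at TN4 and 5.23 at TN3b and differed by -3.26 (limma adjusted p = 0.0107). The gamma-delta genes Sox13 and Cd163l1 and the kinase gene Blk differed between ISP and TN4 by -2.92, -2.83 and -2.43 (limma adjusted p = 0.00584, 0.00781 and 0.0426), while none of the 3 passed for TN4 against TN3a. Cd52, a surface glycoprotein of lymphocytes, averaged 11.35 at TN4, against 7.67 at TN3b (limma adjusted p = 0.0446 for that difference). The part of other cells in these levels was not tested.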
